A study of Mus musculus with 18 samples.

Results

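A set of 10 bone marrow stroma and bone matrix genes is described here: the fibrillar collagen genes Col1a1, Col1a2 and Col3a1, the matrix and mineral genes Sparc, Ibsp, Bglap and Alpl, and the niche genes Cxcl12, Kitl and Lepr. They were taken by name, as the rows of the count table whose Ensembl identifier carries 1 of these symbols in GENCODE M21. All 10 were found among the 54838 genes of the table, and 8 of them had enough counts to be tested among 14181 genes.

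RNA was sequenced from wild-type (WT) C57BL/6 mouse cells of 3 kinds, in 18 libraries that form 6 groups of 3. Bone marrow (BM) was flushed from the femurs of 3 mice and treated with ACK buffer, which bursts red cells. The other two kinds were myeloid-derived suppressor cells, immature myeloid cells that restrain T cells, which grew out of marrow over 5 days of culture. They were sorted, plated again and collected 1 day later in cycloheximide, a drug that holds ribosomes on mRNA. The population LY6C was Cd11b high, Ly6G negative and Ly6C high, and the population LY6G was Cd11b high, Ly6G high and Ly6C intermediate. Each kind gave total RNA and polysomal RNA, the RNA bound by several ribosomes and taken from a sucrose gradient. The series names 3 independent biological replicates, numbered 1, 2 and 3 in BM and 2, 3 and 6 in the sorted cells, and counts below follow that order. BM was neither cultured nor sorted, so the sort, the culture and the kind of cell cannot be told apart in any comparison with BM.

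Marrow stroma is the non-blood tissue of the bone cavity. Osteoblasts and fibroblast-like cells secrete type I collagen, a fibre built from the Col1a1 and Col1a2 chains, and osteoblasts add the proteins that bind and deposit mineral. Perivascular stromal cells marked by the leptin receptor hold blood stem cells in place with the chemokine Cxcl12 and keep them alive with stem cell factor, the product of Kitl.

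In the GRCm38 genome with GENCODE M21 annotation, Col1a1 (ENSMUSG00000001506) lies at chr11:94936224-94953042 on the plus strand. Col1a2 (ENSMUSG00000029661) lies at chr6:4504814-4541544 and Col3a1 (ENSMUSG00000026043) at chr1:45311538-45349706, both on the plus strand. Col1a2 overlaps the gene model Gm43921, of a type still to be tested by experiment (TEC), and Col3a1 the microRNA model Gm47302, each on the same strand. Sparc (ENSMUSG00000018593) lies at chr11:55394500-55423183, Bglap (ENSMUSG00000074483) at chr3:88383501-88384464 and Alpl (ENSMUSG00000028766) at chr4:137741733-137796384, all on the minus strand. The remaining plus-strand genes are Ibsp (ENSMUSG00000029306) at chr5:104299171-104311469, Cxcl12 (ENSMUSG00000061353) at chr6:117168535-117181367, Lepr (ENSMUSG00000057722) at chr4:101717404-101815352 and Kitl (ENSMUSG00000019966) at chr10:100015630-100100416. All 10 are protein-coding.

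RefSeq promoters (GRCm38.p6) were found for 9 of the 10 genes. The 200 bases before the annotated start are shown for 1 gene of each role: Col3a1, whose fall was the smallest of the 3 collagens, Cxcl12, the niche chemokine, and Bglap, which was not detected in BM. Capitals mark 4 motifs searched on both strands: the TATA box TATAAA, the CCAAT box CCAAT, the GC box GGGCGG and the core of the RUNX site TGTGGT.
Col3a1, chr1:45311338-45311537, plus strand: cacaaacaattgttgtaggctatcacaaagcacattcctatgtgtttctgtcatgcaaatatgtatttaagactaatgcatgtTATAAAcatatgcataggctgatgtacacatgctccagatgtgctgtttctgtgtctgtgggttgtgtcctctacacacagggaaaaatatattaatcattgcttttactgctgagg
Cxcl12, chr6:117168335-117168534, plus strand: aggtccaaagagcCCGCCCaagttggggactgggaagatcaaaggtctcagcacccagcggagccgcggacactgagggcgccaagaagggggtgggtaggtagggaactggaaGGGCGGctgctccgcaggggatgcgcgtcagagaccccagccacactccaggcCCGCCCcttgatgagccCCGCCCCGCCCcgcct
Bglap, chr3:88384467-88384666, minus strand: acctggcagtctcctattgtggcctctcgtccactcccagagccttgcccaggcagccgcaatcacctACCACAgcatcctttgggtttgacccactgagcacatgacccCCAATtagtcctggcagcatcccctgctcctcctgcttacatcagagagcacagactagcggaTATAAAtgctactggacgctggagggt
The Col3a1 window holds 1 TATA box, 117 bases before the start, and 37.5% of its bases are G or C. The Cxcl12 window is 68.5% G or C and holds 5 GC boxes, 2 of which overlap next to the start, and no TATA or CCAAT box. The Bglap window holds a TATA box 27 bases before the start, a CCAAT box at 90 bases and a RUNX core on the opposite strand at 132 bases. Among 32851 RefSeq promoter windows of the same length, 9.96% hold TATAAA, 29.3% CCAAT, 31.0% GGGCGG and 11.2% TGTGGT. These matches describe the letters alone.

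Total counts were 8559897 to 26225431 per library. Nuclear protein-coding genes were counted without Lars2, here and wherever such genes are used below. Most BM reads did not come from the genes so counted. Those genes took 37.3 to 94.6% of the counts of sorted libraries, but only 1.82 to 3.71% in polysomal and 0.232 to 0.291% in total RNA of BM. Levels are given as CPM, the count relative to the library total after scaling by TMM factors. A level of 1 CPM stood for 18.1 to 110 counts in sorted libraries, and in BM for 1.73 to 3.51 counts (polysomal) and 0.473 to 0.611 counts (total). A count near 10 in BM is thus a higher level than the same count in sorted cells, and BM total RNA is the least precise group. Fold changes below are log2 differences of the sorted cells minus BM with their standard error (SE), and p-values are from edgeR's quasi-likelihood test with Benjamini-Hochberg adjustment over all 14181 genes. Calls were made at an adjusted p under 0.05. Both sorted populations are set against the same 3 BM libraries in each fraction.

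The members were far lower in sorted cells than in BM. In total RNA, 7 of the 8 tested members fell in LY6C, where 7.4% of all tested genes were called lower and 20.5% higher, and 7 fell in LY6G, where 9.39% were called lower and 21.5% higher. In polysomal RNA 7 fell in LY6C, against 11.2% lower and 20.2% higher of all genes, and all 8 tested fell in LY6G, against 15.3% lower and 22.1% higher. These tallies are partly set by the filter on low counts, which used all groups. Ibsp had 0 counts and Cxcl12 0 to 4 in each sorted library, so both could pass it only through BM. A call of Ibsp against BM could thus only be lower, and one of Cxcl12 had little room to be higher. The shares of all genes are therefore no even yardstick for these members. The call of Ibsp in total RNA rests on 2 counts in BM replicate 1: without that library 6 members were called lower in each population, and with DESeq2 also 6. No member rose. The median log2 difference of the 8 tested members was -8.95 in LY6C and -8.79 in LY6G total RNA, and -9.09 and -9.86 in polysomal RNA, while the medians over all tested genes were 1.64, 1.63, 0.52 and 0.45. With Ibsp left out of the total RNA medians and set at its lower bound in polysomal RNA, for its 0 counts in sorted cells, the member medians were -8.98, -8.66, -8.44 and -9.37. Sorted and BM libraries did not overlap for 6 members in each total RNA comparison, 7 in LY6C and 8 in LY6G polysomal RNA, where 6.14%, 8.45%, 14.0% and 19.5% of all genes were lower without overlap.

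Erythroid genes moved with the members, while most monocyte and macrophage genes went the other way. The summed level of 7 erythroid genes was 438 to 1006 CPM in BM libraries and 0.0792 to 6.88 CPM in sorted libraries. All 6 tested fell in each of the 4 comparisons with BM, where 7.4 to 15.3% of all genes were called lower. Klf1, Slc4a1 and Epor had at most 3 counts in any sorted library, so they could pass the filter only through BM. Calls of these genes thus had little room to be higher. The summed level of 9 monocyte and macrophage genes was 101 to 200 CPM in BM and 773 to 2988 CPM in sorted libraries. Of these, 6 rose in LY6C and 7 in LY6G total RNA, where 20.5 and 21.5% of all genes rose. In polysomal RNA 7 rose in LY6C, and 7 rose and 1 fell in LY6G, where 20.2 and 22.1% of all genes rose. C1qa was lower in sorted cells, at 22.8 CPM in BM polysomal and 4.98 CPM in LY6G polysomal RNA. With the replicate block 1 gene of this list fell in each comparison. In bulk RNA, fewer stromal cells and less of these RNAs per cell cannot be told apart.

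**Figure D1:**
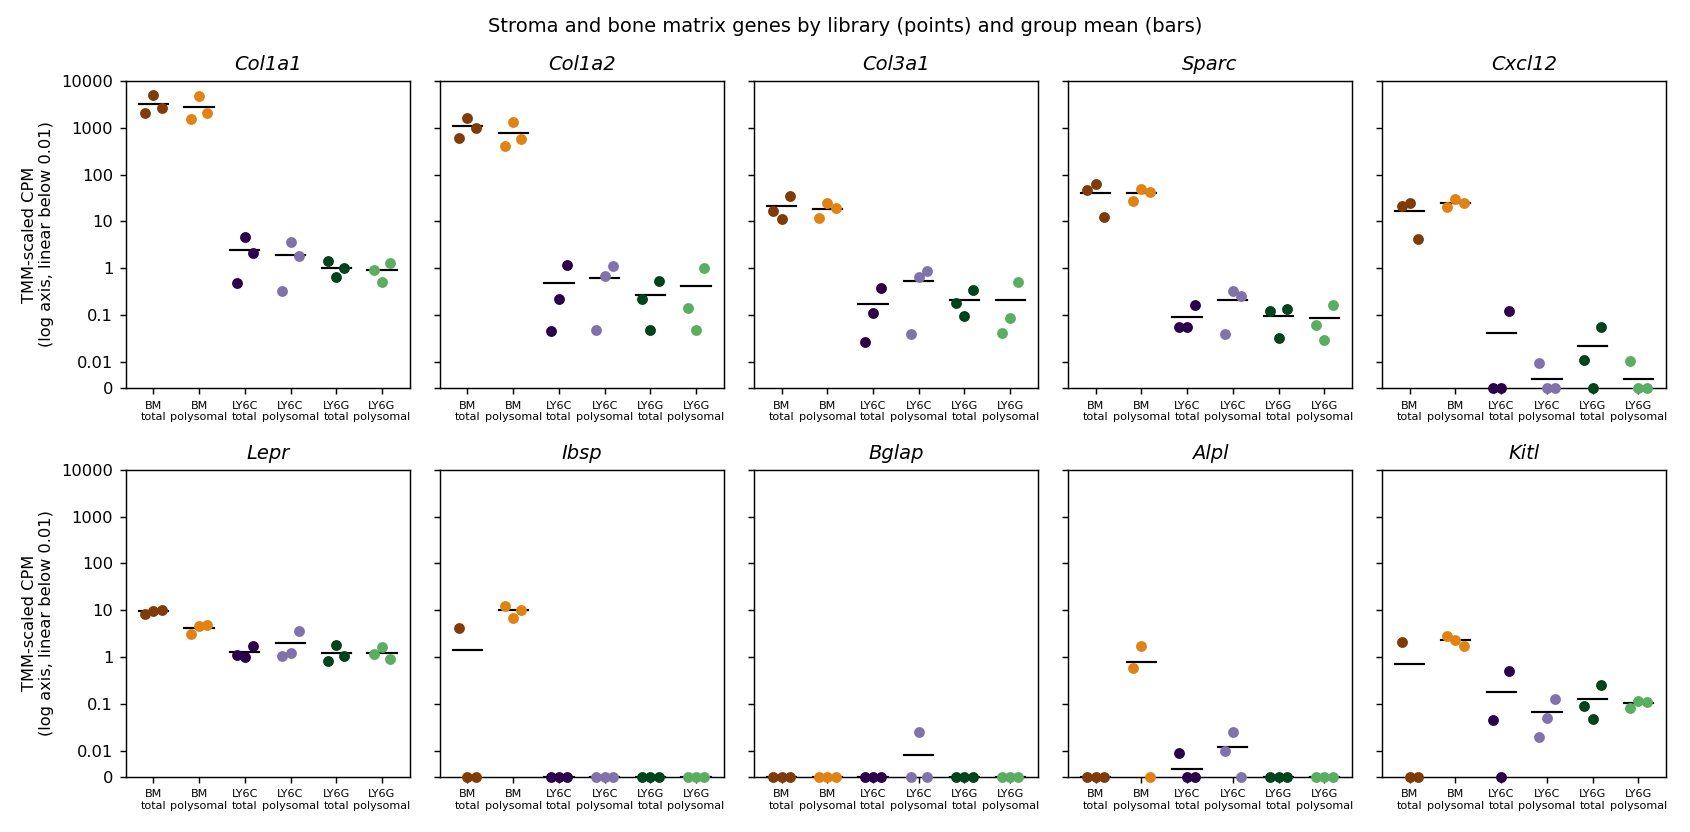
Level of each of the 10 genes in every library, as TMM-scaled CPM on an axis that is linear near 0 and logarithmic above, by group (bars are means of 3 libraries). Col1a1, Col1a2, Col3a1, Sparc and Cxcl12 sit higher in all 6 BM libraries than in any of the 12 sorted libraries, Ibsp is at 0 in all sorted libraries, and Lepr has levels in sorted cells that come close to those in BM polysomal RNA.

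Col1a1 encodes the chain that makes up most of type I collagen, the main protein of bone. It had 969, 3136 and 1311 counts in BM total RNA and 5403, 8379 and 5942 in BM polysomal RNA. In total RNA, LY6C had 54, 85 and 51 counts and LY6G 127, 41 and 75. Polysomal RNA had 34, 144 and 44 counts in LY6C and 88, 53 and 119 in LY6G. Each BM library stood above every sorted library, although the sorted libraries carried far more coding reads. Mean levels were 3296 ± 1622 CPM (SD, n = 3) in BM total RNA and 2823 ± 1769 CPM in BM polysomal RNA, against 0.914 to 2.44 CPM in the 4 sorted groups. In total RNA the difference was -10.45 ± 1.11 in LY6C (edgeR adjusted p = 3.69e-06) and -11.64 ± 1.15 in LY6G (edgeR adjusted p = 1.46e-06). In polysomal RNA it was -10.52 ± 1.11 (edgeR adjusted p = 2.79e-06) and -11.59 ± 1.15 (edgeR adjusted p = 1.09e-06). Without replicate 3 of LY6C the LY6C values were -11.49 in total and -11.44 in polysomal RNA, and without replicate 2 of BM polysomal RNA the LY6G value was -10.93. Every call held when any library was left out.

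Col1a2, the partner chain of Col1a1 in the type I collagen fibre, followed the same order. Its counts were 285, 995 and 476 in BM total RNA and 1448, 2281 and 1631 in BM polysomal RNA. Among sorted cells, replicate 6 of LY6G stood highest in its groups, with 39 counts beside 20 and 3 in total RNA and 93 beside 14 and 5 in polysomal RNA. LY6C had 5, 4 and 28 counts in total and 5, 27 and 27 in polysomal RNA. Sorted and BM libraries did not overlap in CPM. BM held 1071 ± 518 CPM (SD, n = 3) in total and 768 ± 483 CPM in polysomal RNA, and the sorted groups 0.268 to 0.620 CPM. The differences were -11.28 ± 1.71 in LY6C and -11.94 ± 1.73 in LY6G total RNA (edgeR adjusted p = 0.000219 and 0.000126), and -10.40 ± 1.65 and -10.88 ± 1.66 in polysomal RNA (edgeR adjusted p = 0.000262 and 0.000154). The size rested on few sorted counts. Without replicate 6 of the sorted group it was -13.61 in LY6C and -12.86 in LY6G total RNA, and -11.20 and -12.93 in polysomal RNA. Without replicate 2 of LY6C it was -10.55 in total and -9.74 in polysomal RNA, and without replicate 2 of BM polysomal RNA it was -10.20 in LY6G. All 4 calls held each time.

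The 2 type I chains together took 2.28, 5.41 and 3.07% of the counts of nuclear protein-coding genes in BM total RNA and 1.15, 3.88 and 1.69% in BM polysomal RNA. This share does not use the scaling factors. All 10 members together took 0.000846 to 0.00340% in sorted libraries, and in BM 1.19 to 3.95% (polysomal) and 2.37 to 5.50% (total), and almost all member counts in BM were type I collagen. In BM, 96.1 to 98.4% of member counts were Col1a1 or Col1a2, and in sorted libraries 23.0 to 80.9%. Per kb of the longest transcript, Col1a1 ranked 4 among 21984 nuclear protein-coding genes in both BM fractions, and Col1a2 ranked 10 in total and 29 in polysomal RNA. Replicate 2 held the highest share in both BM fractions.

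The ratio of Col1a1 to Col1a2 counts was 3.40, 3.15 and 2.75 in BM total RNA and 3.73, 3.67 and 3.64 in BM polysomal RNA. Per kb these ratios averaged 2.8 ± 0.294 (SD, n = 3) in total and 3.32 ± 0.0404 in polysomal RNA. The ratio spread from 1.28 to 21.2 in sorted cells. It was lowest in replicate 6 of each sorted group, at 1.82 and 1.63 in LY6C total and polysomal RNA and 1.92 and 1.28 in LY6G. The same 4 libraries had 9, 18, 32 and 48 counts of Dcn, the fibroblast proteoglycan decorin, where the other sorted libraries had at most 4; Dcn was singled out after its values were seen. Dcn had 0 counts in BM total RNA and 1, 4 and 0 in BM polysomal RNA. Whether the Dcn-rich libraries bear on the collagen levels was not tested beyond leaving them out: all members called in the 4 comparisons with BM stayed called without them.

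**Figure D2:**
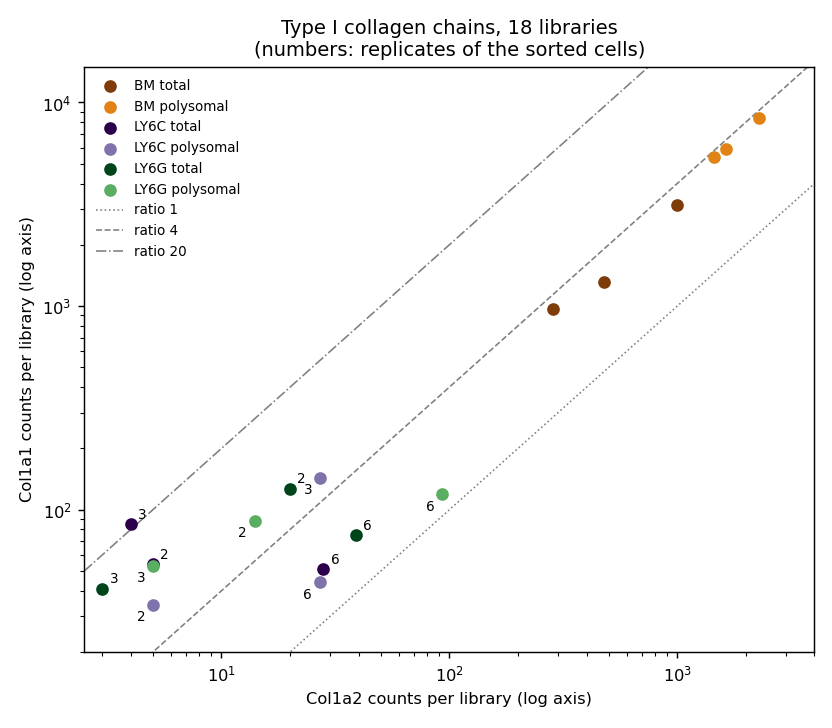
Counts of Col1a1 against Col1a2 in each of the 18 libraries on logarithmic axes, with lines of equal ratio and the replicate number beside the sorted libraries. The 6 BM libraries lie along 1 ratio between 2.75 and 3.73, while the sorted libraries have under 150 Col1a1 counts and scatter, with replicate 6 of each group nearest to a ratio of 1.

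Col3a1, the type III collagen of soft connective tissue and vessel walls, was far scarcer. It had 8, 7 and 17 counts in BM total RNA and 42, 42 and 56 in BM polysomal RNA. In sorted cells it had 3, 2 and 9 counts in LY6C total, 4, 26 and 21 in LY6C polysomal, 16, 6 and 25 in LY6G total and 4, 9 and 46 in LY6G polysomal RNA. As CPM all BM libraries stood above all sorted libraries, at 11.4 CPM or more against 0.876 CPM or less. The differences were -7.26 ± 1.25 in LY6C and -6.64 ± 1.15 in LY6G total RNA (edgeR adjusted p = 0.000371 and 0.000328). They were -5.26 ± 1.04 and -6.44 ± 1.08 in polysomal RNA (edgeR adjusted p = 0.00100 and 0.000191). Its counts were 0.704 to 3.57% of those of Col1a2 in BM and 28.6 to 200% in sorted libraries. Without replicate 6 the values were -8.87 and -5.89 in LY6C total and polysomal RNA and -8.10 in LY6G polysomal RNA, and without replicate 2 they were -6.35 and -4.59 in LY6C, all still called.

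Sparc, or osteonectin, is a secreted glycoprotein that binds collagen and calcium. BM total RNA held 22, 39 and 6 counts and BM polysomal RNA 96, 85 and 123. Sorted libraries held 1 to 15 counts each, and none reached the level of any BM library. BM levels were 40.9 ± 26.2 CPM (SD, n = 3) in total and 39.9 ± 11.2 CPM in polysomal RNA, against 0.0858 to 0.206 CPM in the sorted groups. The difference of Sparc was -8.98 ± 0.87 in LY6C and -8.66 ± 0.81 in LY6G total RNA (edgeR adjusted p = 5.64e-07 and 3.34e-07), and -7.78 ± 0.78 and -8.84 ± 0.80 in polysomal RNA (edgeR adjusted p = 7.18e-07 and 1.40e-07). In LY6C polysomal RNA the value was -7.06 without replicate 2 and -8.60 without replicate 3, and in LY6G polysomal RNA it was -9.70 without replicate 6, all still called.

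Ibsp, bone sialoprotein, is a mineral-binding protein of osteoblasts. It had 44, 12 and 29 counts in BM polysomal RNA but 2, 0 and 0 in BM total RNA, and 0 in all 12 sorted libraries. At 0 counts, 3 counts over a group set the limit, which was 0.0103 to 0.0197 CPM in the sorted groups. BM polysomal RNA held 9.89 ± 2.82 CPM (SD, n = 3). With that level taken as exact, Ibsp was at least 548-fold lower in LY6C and at least 958-fold lower in LY6G (edgeR adjusted p = 1.30e-05 and 5.23e-06). DESeq2 gave adjusted p of 0.0632 and 0.0392, so the LY6C call was lost there. The edgeR calls of Ibsp in total RNA (edgeR adjusted p = 0.00856 and 0.00573) rested on the 2 counts of BM replicate 1. No fold can be given there, and no value is left without that library.

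Bglap, osteocalcin, the matrix protein of mature osteoblasts, was not detected in BM: 0 counts in all 6 libraries allow up to 1.91 CPM in total and 0.371 CPM in polysomal RNA. Its only count was in LY6C polysomal replicate 3. The near-identical neighbours Bglap2 and Bglap3 had no BM count either, and 3 counts in all sorted libraries. How reads that match several of these genes were counted is not given, so the limits of Bglap cover counting error only. The longest Bglap transcript has 440 bases, and protein-coding genes under 1 kb took 2.75 to 4.36% of protein-coding counts in BM and 2.58 to 4.70% in sorted cells. Alpl, the alkaline phosphatase that frees phosphate for mineral, had 0 counts in BM total RNA and 2, 3 and 0 in BM polysomal RNA. Sorted libraries held 3 counts of Alpl in all, each in LY6C. The 3-count limit of LY6G polysomal RNA lay 59.9-fold below the BM level. That value takes the 5 BM counts as exact, and 1 BM library was also at 0. Neither gene passed the filter on low counts.

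Cxcl12, the chemokine that keeps blood stem cells in the marrow, was close to absent from sorted cells. BM total RNA held 10, 15 and 2 counts and BM polysomal RNA 73, 53 and 69. LY6C had 0, 0 and 3 counts in total and 1, 0 and 0 in polysomal RNA, and LY6G had 1, 0 and 4 and then 1, 0 and 0. No sorted library came near a BM library, the lowest of which was BM total replicate 3 at 4.13 CPM. Mean levels in BM were 16.6 ± 10.9 CPM (SD, n = 3) in total and 25.2 ± 4.98 CPM in polysomal RNA. In LY6C the pooled level was 875-fold lower in total RNA (exact 95% counting interval 269 to 4507) and 4007-fold lower in polysomal RNA (711 to 159057). In LY6G polysomal RNA it was 7008-fold lower (1243 to 278208), and these intervals cover counting error only. The fit gave -9.33 ± 1.00 and -9.41 ± 0.93 for LY6C and LY6G total RNA (edgeR adjusted p = 1.58e-06 and 4.81e-07), and edgeR adjusted p of 1.45e-07 and 4.14e-08 in polysomal RNA. Without replicate 6 the total RNA values were -12.74 in LY6C and -10.84 in LY6G, and without replicate 2 the LY6C value was -7.86. Without replicate 2 the polysomal values were -13.10 in LY6C and -13.11 in LY6G. All 4 calls held.

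Kitl, stem cell factor, was scarce in every group. BM total RNA held 1, 0 and 0 counts and BM polysomal RNA 10, 4 and 5. Sorted libraries held 0 to 18 counts, which at their depth is at most 0.498 CPM. In polysomal RNA the BM libraries, at 1.76 to 2.85 CPM, did not overlap with either sorted population. The difference there was -5.41 ± 1.09 in LY6C and -4.46 ± 0.97 in LY6G (edgeR adjusted p = 0.000795 and 0.00126), with -4.76 and -6.13 in LY6C without its replicates 2 and 6. In total RNA the values were -1.93 ± 2.16 and -2.31 ± 2.20 (edgeR adjusted p = 0.551 and 0.459), and a difference was not detectable at the depth of BM total RNA. These 2 values rested on the lone count of BM replicate 1 and were 6.02 and 5.68 without it.

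Lepr, the leptin receptor, binds the fat-cell hormone leptin. BM total RNA held 4, 6 and 5 counts of it, and BM polysomal RNA held 11, 8 and 14. LY6C had 121, 18 and 42 counts in total and 110, 48 and 88 in polysomal RNA, and LY6G had 75, 115 and 78 and then 111, 170 and 83. As CPM, BM total RNA stood at 8.46 to 10.3 CPM, above all sorted libraries. BM polysomal RNA held 3.14 to 4.92 CPM, and LY6C polysomal replicate 6, at 3.67 CPM, reached into that range. Mean levels were 9.53 ± 0.962 CPM (SD, n = 3) in BM total, 4.22 ± 0.955 CPM in BM polysomal RNA and 1.24 to 1.99 CPM in the sorted groups.

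In total RNA the difference of Lepr was -2.90 ± 0.62 in LY6C and -2.94 ± 0.61 in LY6G (edgeR adjusted p = 0.00147 and 0.00107), or 7.47-fold and 7.69-fold lower. In polysomal RNA it fell by 1.75 ± 0.53 in LY6G (edgeR adjusted p = 0.0130), and this call held, up to an adjusted p of 0.0492, when any library was left out. In LY6C polysomal RNA the value was -1.10 ± 0.53 (edgeR adjusted p = 0.120). It was -1.87 without LY6C replicate 6 (edgeR adjusted p = 0.0102), and -1.47 with the replicate number as a block (edgeR adjusted p = 0.0508). The replicate numbers were not seen to pair BM with sorted libraries. Lepr was the member with the smallest difference in polysomal RNA in both populations.

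**Figure D3:**
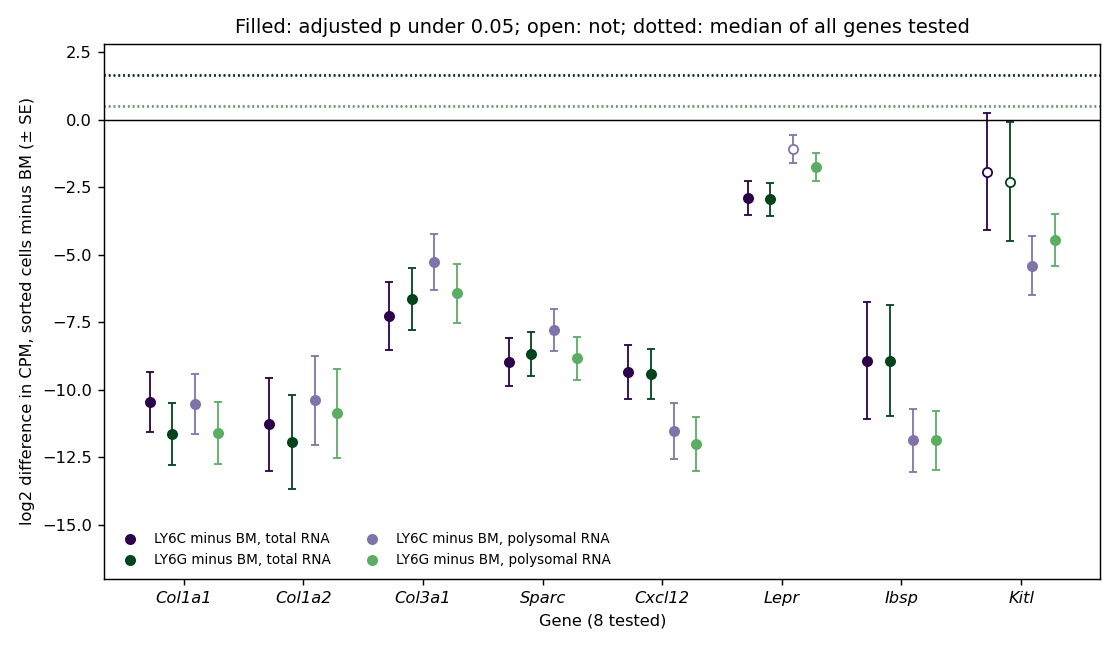
Log2 difference of sorted cells minus BM with its standard error for the 8 tested members, in LY6C and LY6G and in total and polysomal RNA; filled points are called at an adjusted p under 0.05 and dotted lines are the medians of all tested genes; the Ibsp points are fitted against 0 counts and are no measure of its size. Col1a1 lies between -11.64 and -10.45 in all 4 comparisons, and Lepr between -2.94 and -1.10.

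Per kb of the longest transcript, the order of mean levels in BM total RNA was Col1a1 (556 CPM per kb), Col1a2 (200), Sparc (17.8), Col3a1 (3.80), Cxcl12 (2.95), Lepr (1.72), Ibsp (0.682) and Kitl (0.125), with Alpl and Bglap at 0. Only Col1a1 and Col1a2, and Col1a2 and Sparc, were neighbours whose libraries did not overlap. In BM polysomal RNA the order was Col1a1 (476 CPM per kb), Col1a2 (144), Sparc (17.3), Ibsp (4.78), Cxcl12 (4.48), Col3a1 (3.35), Lepr (0.762), Kitl (0.408) and Alpl (0.304). There, Ibsp, Cxcl12 and Col3a1 overlapped with their neighbours, as did Kitl and Alpl, and the other neighbours did not. In sorted cells Col1a1 (0.154 to 0.411 CPM per kb) and Lepr (0.223 to 0.359) stood at the top, and their libraries overlapped in each group.

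Polysomal RNA was set against total RNA within BM to ask which members differ in their share on ribosomes. edgeR called no member, and DESeq2 0, with 1 at an unadjusted edgeR p under 0.05 (Ibsp). Of all genes 3.39% were called in either direction, 2759 had an unadjusted p under 0.05, and the median difference over all tested genes was 0.55. The collagens gave -0.22 ± 0.74 for Col1a1, -0.48 ± 1.09 for Col1a2 and -0.18 ± 0.97 for Col3a1 (edgeR adjusted p = 0.978, 0.900 and 1.00). Sparc gave -0.06 ± 0.60 and Cxcl12 0.57 ± 0.66 (edgeR adjusted p = 1.00 and 0.701). Only Lepr and Ibsp had fractions that did not overlap. Lepr gave -1.19 ± 0.62 (edgeR adjusted p = 0.306), and 1.84% of all genes were lower without overlap. Ibsp gave 2.94 ± 1.03 (edgeR adjusted p = 0.133), and 19.5% were higher without overlap. The pooled Ibsp level in total RNA was 0.121 of that in polysomal RNA, with an exact 95% counting interval of 0.0145 to 0.452.

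The 2 sorted populations were compared to ask whether either held more of these RNAs. edgeR called no gene between LY6G and LY6C, 0% in total and 0% in polysomal RNA, with 565 and 833 genes, and no member, at an unadjusted edgeR p under 0.05. DESeq2 called 0 genes in each, and edgeR without the filter on low counts called 76 and 88, none of them a member. These fits did not use the replicate numbers, which pair the sorted libraries. With the replicate number as a block, no member was called either. The Col1a1 difference of LY6G minus LY6C was -1.19 ± 0.78 in total and -1.07 ± 0.77 in polysomal RNA (edgeR adjusted p = 1.00 and 0.866), and that of Lepr was -0.04 and -0.66. In both fractions LY6G and LY6C libraries overlapped for every tested member with counts in them.

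Among 14180 tested genes, those whose profile over the 18 libraries lay nearest to Col1a1, by the root mean square difference of centred log2 CPM, included Col1a2 (0.889), the red cell anion exchanger gene Slc4a1 (1.07), the microRNA model Gm24270 (1.11) and the ribosomal RNA gene n-R5-8s1 (1.2). For Cxcl12 they were Epor (0.553), Btnl10 (0.594), Ermap (0.685), Gm22175 (0.707) and Gm25747 (0.740). All these points share the contrast of BM with sorted cells.

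Of 20 other collagens and matrix proteins of bone and stroma, 13 were tested. In total RNA 6 fell and 2 rose in LY6C, and 7 fell and 2 rose in LY6G, and in polysomal RNA 7 fell and 2 rose in LY6C, and 8 fell and 2 rose in LY6G. Over all genes, 7.4 to 15.3% were called lower and 20.2 to 22.1% higher in these comparisons. The list medians were -4.63, -4.66, -3.55 and -4.32, below the medians of all genes and above those of the 8 members. The same 6 genes fell in all 4 comparisons, among them Col6a1, a chain of the beaded type VI collagen, with -10.91 ± 0.87 in LY6C and -9.53 ± 0.74 in LY6G total RNA (edgeR adjusted p = 4.16e-08 and 2.24e-08). Col11a1, also among them, had 0 counts in all sorted libraries, Col6a1 at most 8 and Col6a2 at most 5. These genes could pass the filter on low counts only through BM. A call of Col11a1 could thus only be lower, and calls of the others had little room to be higher. Col5a2, a chain of the type V collagen that sets fibre width, gave -7.77 and -8.01 in total RNA (edgeR adjusted p = 0.000167 and 7.13e-05). Its partner Col5a1 gave -0.27 and -1.0 (edgeR adjusted p = 0.735 and 0.226). The 2 that rose were Fn1, fibronectin, at 2.76 and 2.87, and Thbs1, thrombospondin, at 7.06 and 6.71 in LY6C and LY6G total RNA (edgeR adjusted p of 0.000861 or less), both also made by myeloid cells.

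Enzymes that fold and process collagen had more higher than lower calls, as did all genes. Among 17 such genes, 11 were tested, and 4 rose and 1 fell in all 4 comparisons with BM, where 20.2 to 22.1% of all genes were called higher and 7.4 to 15.3% lower. P4hb, a subunit of prolyl hydroxylase, rose by 2.44 ± 0.35 in LY6C and 2.27 ± 0.35 in LY6G total RNA (edgeR adjusted p = 3.35e-05 and 5.60e-05), and the lysyl hydroxylase gene Plod3 by 2.42 and 1.98. Ppib, a proline isomerase, rose by 1.79 and 1.71 there, and these 2 calls were lost with DESeq2, with median-ratio factors and with nuclear protein-coding genes only. The gene that fell was Adamts2, which cuts the end off procollagen, at -9.10 ± 0.88 and -7.50 ± 0.75 in total RNA (edgeR adjusted p = 4.32e-07 and 5.44e-07). Adamts2 had 0 to 12 counts in sorted libraries, so it passed the filter on low counts through BM.

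Of 21 osteoblast and osteocyte genes only 4 passed the filter, and 15 had 0 counts in BM total RNA and 10 in BM polysomal RNA. Sp7, a transcription factor that osteoblasts require, named here after its values were seen, was at 0 in all 6 BM libraries. Spp1, osteopontin, which osteoblasts and macrophages both secrete, rose by 6.61 ± 1.37 in LY6C and 6.89 ± 1.36 in LY6G total RNA and by 4.87 and 4.02 in polysomal RNA (edgeR adjusted p of 0.00170 or less). Runx2 gave 0.12 and 0.18 in total RNA (edgeR adjusted p = 0.868 and 0.801). Of the bone genes, BM libraries thus held type I collagen, Sparc and Ibsp, with Bglap and Sp7 at 0.

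Of 18 other genes of the haematopoietic niche stroma 11 were tested. In total RNA 4 fell and 2 rose in LY6C, and 5 fell and 2 rose in LY6G. Polysomal RNA had 5 lower and 3 higher in LY6C, and 6 lower and 3 higher in LY6G. The shares of all genes were 7.4 to 15.3% lower and 20.2 to 22.1% higher in these comparisons. Vcam1, an adhesion molecule of niche stroma and macrophages, gave -4.25 ± 0.85 in LY6C and -6.26 ± 0.91 in LY6G total RNA (edgeR adjusted p = 0.00114 and 5.88e-05). Igfbp5, a secreted binder of insulin-like growth factors, gave -6.36 and -8.84 (edgeR adjusted p = 0.00746 and 0.00112). Gas6, a ligand of the TAM receptors, gave -6.15 and -5.40 (edgeR adjusted p = 1.82e-05 and 2.83e-05). The genes that rose in all 4 comparisons were Csf1, the macrophage growth factor, at 3.53 and 3.99, and Lpl, lipoprotein lipase, at 7.38 and 7.65 in total RNA (edgeR adjusted p of 0.00512 or less).

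**Figure D4:**
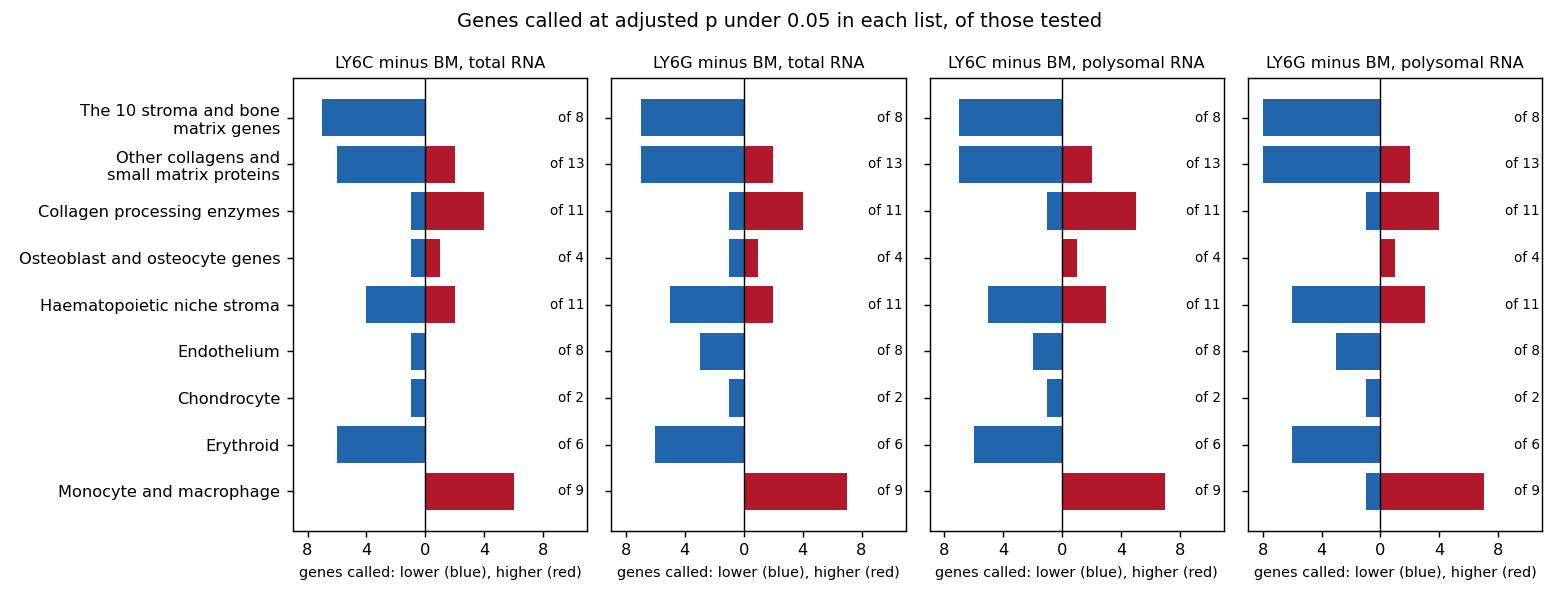
Number of genes called lower and higher in LY6C and LY6G against BM, in total and polysomal RNA, for 9 gene lists, out of the genes tested in each. The 10 member genes and the erythroid, endothelial and chondrocyte genes have calls in the lower direction only, the other collagens mostly lower, and the collagen processing enzymes mostly higher.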

How the data were processed

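Total and polysomal RNA of BM, LY6C and LY6G, 3 libraries each, came as 1 deposited table of raw counts, which the authors made per gene for 54838 genes. Per the submitters' processing notes, FastQC, STAR 2.5.2a, DESeq and DESeq2 were used with GRCm38 (mm10). The counting program, its annotation and its strand setting are not given in the sources used here, so overlapping and near-identical genes may share or lose reads. Per the labels' protocols, libraries were stranded and depleted of ribosomal RNA.

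Here the counts were fitted with edgeR 4.0.16 in R 4.3.3. All 18 libraries entered 1 model with 6 group means, TMM factors and a prior count of 2, after filterByExpr at a minimum count of 10 (14181 genes, common dispersion 0.163), with robust quasi-likelihood tests adjusted by Benjamini-Hochberg. Figures used matplotlib 3.10.9. The named members and gene lists, and the rule that names up to 4 genes of a list with the highest mean CPM in BM total RNA and up to 2 with the highest in sorted cells, were chosen with earlier results of these data known. Some genes that the rule names are not reported here. The limit of a count of 0 is 3 counts, the 95% bound. A fold against such a limit takes the BM counts as exact.

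Replicate numbers come from the sample names. Deviations from the group mean correlated between LY6G and LY6C libraries of the same number (0.42, 0.45 and 0.59 in total, 0.27, 0.38 and 0.47 in polysomal RNA), so the numbers pair the sorted libraries. Between BM fractions they were 0.03 or less, and between BM and sorted libraries of the same number -0.022 to 0.032. A pairing of BM libraries by number was thus not seen. The alternatives were DESeq2 1.42.0, median-ratio factors, no filter, nuclear protein-coding genes only, a replicate block, the compared libraries alone and each library left out. Leaving out the 4 sorted libraries numbered 6 was chosen after seeing the data.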

Additional observations from a re-analysis of the deposited data

How the results depend on the processing

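BM total RNA is the limiting group: 1 CPM was at most 0.611 counts there, so Ibsp, Kitl, Alpl and Bglap could not be measured in it. Against 7, 7, 7 and 8 members called lower (LY6C and LY6G total, LY6C and LY6G polysomal RNA), DESeq2 called 6, 6, 6 and 8 and no filter 7, 7, 8 and 9. Leaving out each library gave 6 to 7, 6 to 7, 7 to 8 and 8. Ibsp had a DESeq2 adjusted p of 0.208, 0.147 and 0.0632 in LY6C total, LY6G total and LY6C polysomal RNA, and Alpl was called in polysomal RNA without the filter. The replicate block changed no member call, with 7, 7, 7 and 8 called lower. Over all genes the block gave 4294, 4617, 4878 and 5532 calls against 3963, 4374, 4453 and 5313, and for BM polysomal minus total RNA 636 against 481. That last count was 200 with median-ratio factors, 165 with nuclear protein-coding genes only, 265 with the compared libraries alone, 241 without the 4 sorted libraries numbered 6 and 127 to 507 with a library left out. LY6C minus BM in total RNA gave 2144 calls with the compared libraries alone and 2908 to 3645 with a library left out, LY6G minus BM 3327 to 3898, and polysomal RNA 3459 to 4156 and 4318 to 4640. Between LY6G and LY6C the counts of 0 became 76 and 88 without the filter and 4 and 1 without the libraries numbered 6. The median difference over all genes moved with the setting: that of LY6C minus BM in total RNA was 1.64, and 0.18 with DESeq2, 1.36 with median-ratio factors and 0.93 with nuclear protein-coding genes, and that of LY6G 1.63, 0.32, 1.49 and 0.97. The split of lower and higher calls moved from 1050 and 2913 to 1694 and 2253 with DESeq2, 1256 and 2103 with median-ratio factors and 1182 and 1950 with nuclear protein-coding genes in LY6C total RNA, from 1331 and 3043 to 1834 and 2698 with DESeq2 in LY6G total RNA, and for BM polysomal minus total RNA from 113 and 368 to 422 and 85 with DESeq2 and 133 and 67 with median-ratio factors. Members changed sign only where they were not called. LY6G minus LY6C of Lepr in total RNA went from -0.0423 to 0.0904 with DESeq2, 0.0902 with median-ratio factors, 0.0261 without the filter and 0.0443 with nuclear protein-coding genes, and of Cxcl12 to 0.0194 with median-ratio factors. Without the libraries numbered 6 it was 0.75 for Col1a2, 1.74 for Cxcl12, 0.33 for Lepr and 0.91 for Kitl in total RNA, and 0.33 for Lepr in polysomal RNA. With a library left out, LY6G minus LY6C in total RNA ranged from -1.58 to 1.59 for Col1a2, -0.29 to 2.15 for Col3a1, -0.22 to 0.82 for Sparc, -1.53 to 3.24 for Cxcl12, -0.42 to 0.23 for Lepr and -1.23 to 1.77 for Kitl. In polysomal RNA it ranged from -1.61 to 1.14 for Cxcl12, -2.53 to 0.32 for Col1a2 and -0.97 to 0.12 for Lepr. BM polysomal minus total RNA ranged from -0.93 to 0.21 for Col1a1, -0.53 to 0.34 for Col3a1 and -0.54 to 0.39 for Sparc, and Kitl in total RNA from -4.16 to 6.02 in LY6C and -3.16 to 5.68 in LY6G minus BM. The cause of these changes was not tested.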

Other observations

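Cartilage, vessel and bone-resorbing cell genes were also read in the same libraries. Col2a1, the collagen of cartilage, was found in BM total RNA at 2, 11 and 12 counts, in BM polysomal RNA at 85, 36 and 87 counts, and in no sorted library above 2 counts. Col2a1 could thus pass the filter on low counts only through BM, and its calls had little room to be higher. It gave -8.77 ± 0.96 in LY6C and -9.30 ± 0.91 in LY6G total RNA (edgeR adjusted p = 2.00e-06 and 4.53e-07), and 1 of the 2 tested chondrocyte genes fell in each comparison with BM. Of 8 tested endothelial genes, 1 fell in LY6C and 3 in LY6G total RNA, and 2 and 3 in polysomal RNA, where 7.4 to 15.3% of all genes fell. With DESeq2, 4 fell in LY6C and 4 in LY6G total RNA, and 2 and 4 in the polysomal fractions. With the replicate block 1 fell in LY6C and 3 in LY6G total RNA, and 3 and 5 in the polysomal fractions. Tie1, an endothelial receptor, gave -4.19 and -6.23 in total RNA (edgeR adjusted p = 0.00465 and 0.000236), while the adhesion molecule Pecam1 gave -1.10 and -1.74 (edgeR adjusted p = 0.171 and 0.0295).

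Of 8 tested osteoclast genes, 1 fell and 2 rose in LY6C and 1 fell and 4 rose in LY6G total RNA. In polysomal RNA 1 fell and 4 rose in each population, and 20.2 to 22.1% of all genes rose. With the replicate block 2 fell and 1 rose in LY6C and 2 fell and 2 rose in LY6G total RNA, and 3 fell and 4 rose in LY6C and 2 fell and 4 rose in LY6G polysomal RNA. With DESeq2 2 fell and 3 rose in LY6C and 1 fell and 4 rose in LY6G total RNA, and 1 fell and 5 rose in each population's polysomal RNA. Dcstamp and Nfatc1 rose in all 4 comparisons with BM, and Dcstamp had 0 counts in BM and 15.7 to 29.7 CPM in the sorted groups. A call of Dcstamp against BM could thus only be higher. The only gene of this list that fell in all 4 was the integrin gene Itgb3, which platelets also carry. It gave -2.75 ± 0.45 and -3.63 ± 0.46 in total RNA (edgeR adjusted p = 0.000133 and 7.51e-06). Of 7 B lineage genes, 5 fell in LY6C and 6 in LY6G total RNA, and 5 and 7 in polysomal RNA. Over all genes, 7.4 to 15.3% fell in these comparisons. DESeq2 called 6 B lineage genes lower in each population's total RNA, and 6 and 7 in polysomal RNA. With nuclear protein-coding genes only, 4 and 5 fell in total and 5 and 6 in polysomal RNA.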
